A study of Homo sapiens with 4 samples.

Results

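Krüppel-like factors (KLFs) are transcription factors named after the fly gene Krüppel. The genes described here are KLF2, KLF3, KLF4, KLF5, KLF6, KLF9, KLF10, KLF11, KLF13 and KLF15, chosen by symbol from the deposited expression table. Of these 10 genes, 9 were found among the 18806 gene symbols of the table, and KLF13 is not analysed here. RNA-seq was performed in Huh7, a line of human hepatocellular carcinoma cells, grown from a single clone that expresses Cas9. The cells were transduced with a lentiviral non-targeting guide (sgNS, 2 libraries) or with a guide against METTL16, an m6A RNA methyltransferase (METTL16 KO, 2 libraries), and both groups were selected with hygromycin B. The 2 libraries of the METTL16 KO group are taken to carry 1 guide, which the paper does not state. The METTL16 KO group rests on 1 Cas9 clone, and the labels call it a knockdown. Its comparison with sgNS asks which transcripts change when METTL16 is targeted. The libraries of a group are described as biological replicates. Whether they were transduced separately is not stated, so the p-values measure only the spread between these libraries.

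All KLFs bind GC-rich DNA and CACCC boxes through a conserved run of C2H2 zinc fingers at the C-terminus, which they share with the SP factors. Their N-terminal parts differ. KLF2, KLF4, KLF5 and KLF6 can recruit acetyltransferases such as EP300, KLF9, KLF10 and KLF11 recruit the SIN3A corepressor, and KLF3 recruits the CTBP corepressors. Several KLF genes respond within a short time to growth factors, TGF-beta, glucocorticoids or the circadian clock, and in the liver KLF15, KLF9 and KLF10 are known for roles in glucose, lipid and amino acid metabolism.

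KLF4 and KLF5 had the largest rises among the KLFs and KLF2 the largest fall, and the promoter stretches of these 3 genes are shown for that reason. Each is the 250 bases before the RefSeq transcription start nearest to the start of the canonical GENCODE transcript, written 5′ to 3′ on the strand of the gene from GRCh38.p14. The KLF4 and KLF5 windows lie inside the span of the annotated gene but outside its annotated exons, since other transcripts start farther upstream, and the KLF2 window ends just before the gene. Capitals mark GC boxes (GGGCGG) and CACCC boxes (CACCC) on either strand.
KLF4, minus strand, chr9:107489770-107490019: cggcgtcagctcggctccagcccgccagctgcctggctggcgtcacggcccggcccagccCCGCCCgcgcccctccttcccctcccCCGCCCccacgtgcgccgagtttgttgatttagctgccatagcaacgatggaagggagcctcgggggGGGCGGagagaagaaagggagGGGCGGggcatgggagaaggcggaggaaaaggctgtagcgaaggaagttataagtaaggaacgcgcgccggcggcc
KLF5, plus strand, chr13:73058755-73059004: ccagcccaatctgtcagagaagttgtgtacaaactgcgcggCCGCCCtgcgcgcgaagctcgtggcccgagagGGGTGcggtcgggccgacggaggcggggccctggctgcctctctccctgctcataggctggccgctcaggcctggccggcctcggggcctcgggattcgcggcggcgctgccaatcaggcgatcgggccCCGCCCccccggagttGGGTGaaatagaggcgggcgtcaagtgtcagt
KLF2, plus strand, chr19:16324576-16324825: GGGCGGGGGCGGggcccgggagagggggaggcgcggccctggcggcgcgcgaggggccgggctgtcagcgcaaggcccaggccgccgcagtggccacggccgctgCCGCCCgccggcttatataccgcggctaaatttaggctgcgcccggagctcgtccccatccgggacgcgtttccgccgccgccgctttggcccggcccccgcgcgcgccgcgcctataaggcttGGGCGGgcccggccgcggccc
The KLF4 window held 4 GC boxes and 0 CACCC boxes, the KLF5 window 2 and 2, and the KLF2 window 4 and 0. Matching windows were found for 7 of the 9 KLF genes, and 1 was used per gene. The start used for KLF11 lay 279 bases from the canonical start. A GC box lay in 6 of these 7 windows, against 42.6% of all 35116 windows in the RefSeq table. That table holds more than 1 window for some genes, so the 2 sets are not chosen alike. A CACCC box lay in 1 of the 7, against 54.7% of all windows. The E-box CACGTG lay in 4 of the 7, against 6.34%, in KLF4, KLF6, KLF11 and KLF15. The cAMP response core TGACG lay in 3 of the 7, against 21.2%, and the TATA box TATAAA in 0, against 10.7%. The windows were rich in G and C, at 80% in KLF2, 69.2% in KLF4 and 70.8% in KLF5, against a median of 58% over all windows. The exception was KLF9, at 32.4%, where none of the 5 motifs was matched. Whether the number of motif matches goes with the change of a gene was not tested. Such matches describe letters in a window and not occupied sites.

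The table gives TPM, the share of a fixed transcript total after correction for transcript length. How many reads stand behind a TPM value is unknown, so its counting error is too. METTL16, on the minus strand of chromosome 17 from 2405562 to 2511891 (GRCh38), had 26.3 and 25.1 TPM under sgNS against 17.6 and 18.8 TPM under METTL16 KO. METTL16 thus fell by 0.50 on the log2 scale (standard error 0.062, limma with Benjamini-Hochberg adjusted p = 2.4e-05). The tests used log2(TPM + 0.1) for the 11971 genes whose mean reached 1 TPM, and on this scale the changes of low genes come out too small. Over all these genes the log2 fold change had a median of 0.16, so values are to be read against 0.16 and not against 0. For 1 gene, the lowest two-sided p that an exact permutation test could give here was 0.333, and each limma p-value rests on a spread shared across genes. The hepatocyte markers of a liver cell line were present, with 9 of 9 listed genes tested and a summed level of 17758 to 17829 TPM under sgNS and 29682 to 30092 TPM under METTL16 KO. The part of this shift in the results was not tested. Of the 9 genes, 6 were called higher, 2 lower and 1 was not called, where 50.1% of all genes were higher and 25.6% lower. Most of the rise in the sum was AFP, the fetal albumin relative. AFP went from 1737 and 1793 TPM under sgNS to 10386 and 10197 TPM under METTL16 KO. ALB rose from 7437 and 7537 TPM to 10079 and 9882 TPM, while TF fell from 2105 and 2039 TPM to 1559 and 1523 TPM and APOB fell from 1157 and 1170 TPM to 1067 and 1005 TPM. The endothelial markers CDH5, VWF and KDR were at 0 to 0.04 TPM, and the summed 4 stromal markers at 2.16 to 2.91 TPM. Of the 4 leukocyte markers, PTPRC and CD3E were at 0.09 to 0.48 TPM, the macrophage marker CD68 was at 2.72 to 3.4 TPM under sgNS and 8.57 to 8.86 TPM under METTL16 KO, and LYZ had nearly all of the summed level, 1514 and 1556 TPM against 919 and 933 TPM. The cells are of a line grown from a single clone. In their bulk RNA, fewer cells that express a gene and less RNA per cell cannot be told apart.

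With limma and a threshold of 0.05 on the adjusted p, 4 of the 9 KLF genes were higher under METTL16 KO, 4 were lower and 1, KLF3, did not pass. Over all genes tested, 50.1% were called higher and 25.6% lower, so that a call by itself is common in this comparison. With a log2 fold change of at least 1 as well, KLF4 and KLF5 were higher and KLF2 was lower, where 7.7% of all genes were called higher and 3.77% lower. The 2 groups did not overlap in 9 of 9 KLF genes, against 87.4% of all genes. The median log2 fold change of the 9 genes was -0.09, below the 0.16 of all genes, and 4 of the 9 lay above it. All 9 genes had group means above 1 TPM in both groups.

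**Figure D1:**
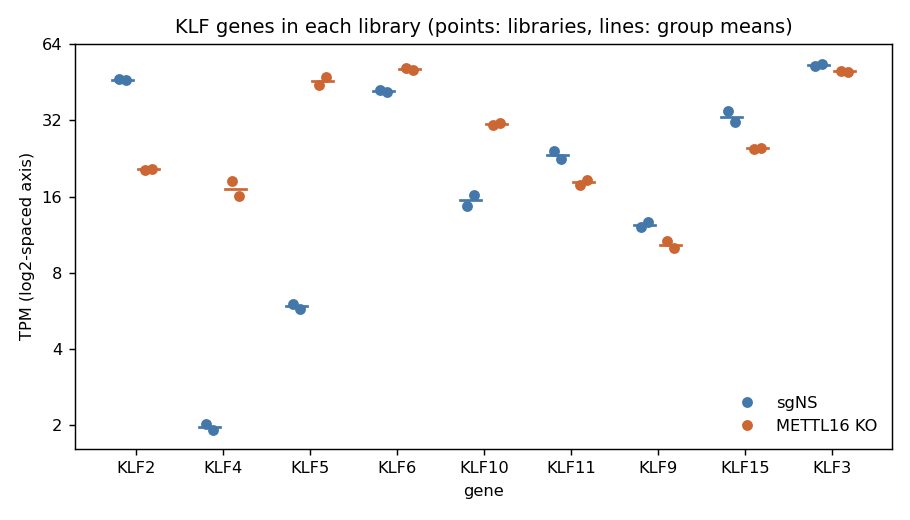
TPM of the 9 KLF genes on a log2-spaced axis, with a point for each of the 2 sgNS and 2 METTL16 KO libraries and a line at each group mean. KLF4 and KLF5 moved from the lowest levels under sgNS to 16.05 to 18.4 TPM and 44.1 to 47.2 TPM under METTL16 KO, KLF2 fell to 20.5 TPM in both METTL16 KO libraries, and KLF3 stayed between 49.4 and 53.5 TPM.

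KLF4, KLF5, KLF2 and KLF6 belong to the KLFs known mainly as activators. KLF4, a reprogramming factor that also governs differentiation of epithelia, lies on the minus strand of chromosome 9 from 107484852 to 107490482 (GRCh38, GENCODE release 44). KLF4 had 2.02 and 1.91 TPM under sgNS against 18.4 and 16.05 TPM under METTL16 KO. Both METTL16 KO libraries lay far above both sgNS libraries, and the mean level was 8.76 times that of sgNS. The log2 fold change was 3.06 (standard error 0.11, limma adjusted p = 1.2e-09), which ranked 73 among the 11971 genes from the largest rise.

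KLF5, a factor of proliferating epithelia, lies on the plus strand of chromosome 13 from 73054976 to 73077541. KLF5 had 6.04 and 5.76 TPM under sgNS against 44.1 and 47.2 TPM under METTL16 KO, with the groups wide apart. This is a log2 fold change of 2.93 (standard error 0.068, limma adjusted p = 6.6e-11), ranked 87 from the largest rise. KLF4 and KLF5 are often described as counterparts, KLF4 as a brake on the cell cycle and KLF5 as a driver of it. Both rose here, and the ratio of KLF5 to KLF4 was 2.99 and 3.02 under sgNS against 2.40 and 2.94 under METTL16 KO. The second METTL16 KO library lay closer to sgNS than to the first METTL16 KO library. With a pseudocount of 1, KLF5 was at 2.76 and KLF4 at 2.62, so which of them rose more depends on the pseudocount.

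KLF2, known for quiescence of endothelium and of lymphocytes, is a close relative of KLF4 and lies on the plus strand of chromosome 19 from 16324826 to 16328685. KLF2 was at 46.5 and 46.0 TPM under sgNS and at 20.5 TPM in both METTL16 KO libraries. The mean level under METTL16 KO was 0.443 times that under sgNS, and the difference was far larger than the spread between replicates. The log2 fold change was -1.17 (standard error 0.051, limma adjusted p = 7.3e-09), ranked 299 from the largest fall. Among the endothelial markers, PECAM1 also fell, from 5.14 and 4.74 TPM under sgNS to 3.09 and 2.7 TPM under METTL16 KO. The other 3 were at or below 0.04 TPM. The cells are of a line grown from a single clone, and how the fall of PECAM1 relates to that of KLF2 was not tested. The ratio of KLF4 to KLF2, which a single scaling factor per library leaves as it is, went from 0.0434 and 0.0415 under sgNS to 0.898 and 0.783 under METTL16 KO. The ratio of KLF5 to KLF2 went from 0.130 and 0.125 to 2.16 and 2.30, so that KLF5 passed from below KLF2 to above it.

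KLF6, a widely expressed factor described as an activator of CDKN1A, lies on the minus strand of chromosome 10 from 3775996 to 3785281. KLF6 had 42.2 and 41.5 TPM under sgNS against 51.5 and 50.5 TPM under METTL16 KO. This is a log2 fold change of 0.28 (standard error 0.046, limma adjusted p = 2.0e-04), and relative to the median gene it was 0.12. KLF6 rose by less than the other KLFs that rose, and the 2 groups did not overlap.

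KLF10 and KLF11 were first described as TGF-beta-inducible early genes and bind the SIN3A corepressor. KLF10, on the minus strand of chromosome 8 from 102648784 to 102655725, had 14.7 and 16.3 TPM under sgNS against 30.6 and 31.2 TPM under METTL16 KO. Its mean level was 1.99 times that under sgNS, with a log2 fold change of 0.99 (standard error 0.065, limma adjusted p = 1.7e-07). It thus missed the fold threshold by a small margin. KLF11, on the plus strand of chromosome 2 from 10042849 to 10054836, moved the other way, from 24.2 and 22.6 TPM under sgNS to 17.8 and 18.6 TPM under METTL16 KO. The log2 fold change of KLF11 was -0.36 (standard error 0.063, limma adjusted p = 3.6e-04). The ratio of KLF10 to KLF11 was 0.607 and 0.721 under sgNS and 1.71 and 1.68 under METTL16 KO, so the order of the pair was inverted in both METTL16 KO libraries.

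KLF9, a SIN3A-binding factor induced by glucocorticoids and thyroid hormone, lies on the minus strand of chromosome 9 from 70384604 to 70414657. KLF9 had 12.1 and 12.7 TPM under sgNS against 10.7 and 10.0 TPM under METTL16 KO. This is a log2 fold change of -0.26 (standard error 0.076, limma adjusted p = 0.0087), and without the second METTL16 KO library the adjusted p was 0.083. The groups did not overlap.

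KLF15, a regulator of gluconeogenesis and of amino acid breakdown in liver, lies on the minus strand of chromosome 3 from 126342635 to 126357408. KLF15 had 34.7 and 31.5 TPM under sgNS against 24.7 and 24.9 TPM under METTL16 KO. The 2 groups did not overlap, with a log2 fold change of -0.41 (standard error 0.060, limma adjusted p = 8.8e-05). KLF3, a repressor that acts through CTBP proteins, lies on the plus strand of chromosome 4 from 38664197 to 38701517. KLF3 had 52.6 and 53.5 TPM under sgNS against 50.3 and 49.4 TPM under METTL16 KO. The log2 fold change of KLF3 was -0.09 (95% confidence interval -0.19 to 0.01), at a limma adjusted p of 0.097. After median-ratio scaling, which sets the median gene near 0, KLF3 was at -0.25 at a limma adjusted p of 4.7e-04, and after quantile normalization at -0.21 at a limma adjusted p of 0.0023.

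**Figure D2:**
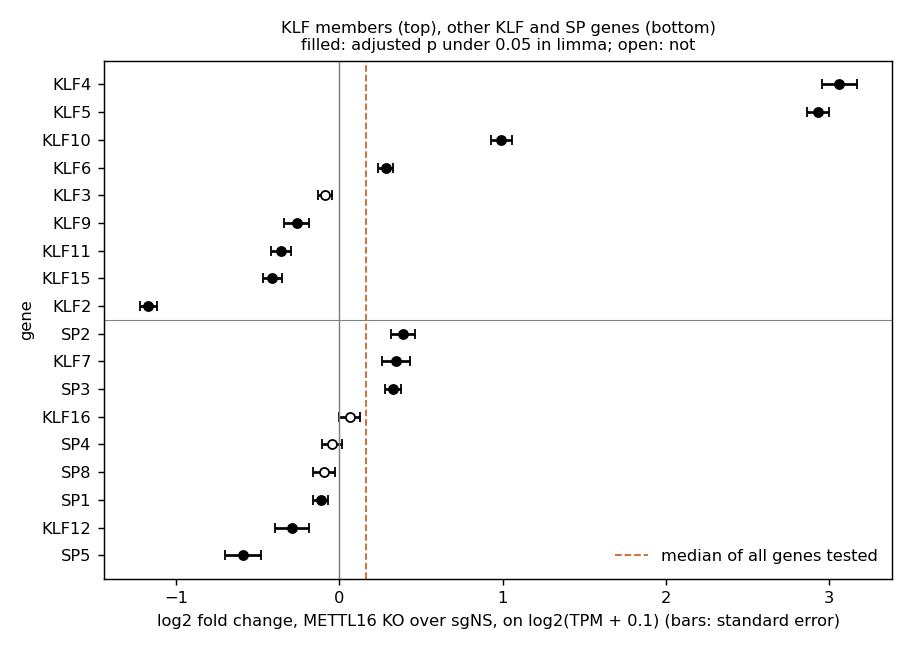
Log2 fold change of METTL16 KO over sgNS on log2(TPM + 0.1) for the 9 KLF genes described (top) and the 9 other KLF and SP genes tested (bottom), with standard errors, points filled where the limma adjusted p was under 0.05 and a dashed line at the median of all genes, 0.16. KLF4, KLF5 and KLF10 lie at 3.06, 2.93 and 0.99 and KLF2 at -1.17, while the genes in the lower panel lie between -0.59 and 0.39.

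The order of the KLF levels differed between the groups. In sgNS the order of mean TPM was KLF3, KLF2, KLF6, KLF15, KLF11, KLF10, KLF9, KLF5 and KLF4, and no neighbours in it overlapped. In METTL16 KO the order was KLF6, KLF3, KLF5, KLF10, KLF15, KLF2, KLF11, KLF4 and KLF9. There KLF11, at 17.8 to 18.6 TPM, and KLF4, at 16.05 to 18.4 TPM, overlapped, and KLF6 and KLF3 were separated by less than the range of either. The summed level of the 9 genes was 235 and 232 TPM under sgNS and 268 TPM in both METTL16 KO libraries. KLF5 made up 2.57% and 2.49% of this sum under sgNS and 16.4% and 17.6% under METTL16 KO. The share of KLF4 went from 0.860% and 0.824% to 6.84% and 5.98%. KLF2 went from 19.8% in both sgNS libraries to 7.62% and 7.64%, and KLF15 from 14.8% and 13.6% to 9.22% and 9.29%. The sum thus differed little beside the change in its make-up.

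**Figure D3:**
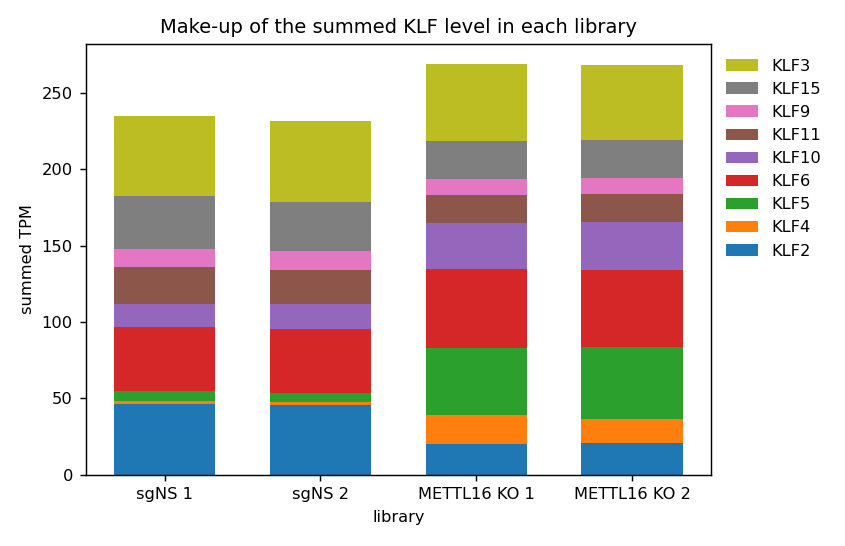
Summed TPM of the 9 KLF genes in each library, stacked by gene. The total was 235 and 232 TPM under sgNS and 268 TPM in both METTL16 KO libraries, and the segments of KLF5 and KLF4 grew while that of KLF2 shrank.

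How the libraries were scaled mattered for the small changes. After median-ratio scaling, 4 KLF genes were called higher and 5 lower, and over all genes 4349 were higher and 4380 lower, in place of 5999 and 3065. KLF4 was then at 2.90, KLF5 at 2.77, KLF10 at 0.83 and KLF2 at -1.34. KLF6 was at 0.12, at a limma adjusted p of 0.036. Quantile normalization also gave 4 higher and 5 lower KLF genes, with 4420 higher and 4248 lower over all genes. The directions of the 9 genes did not differ between the 3 scalings.

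**Figure D4:**
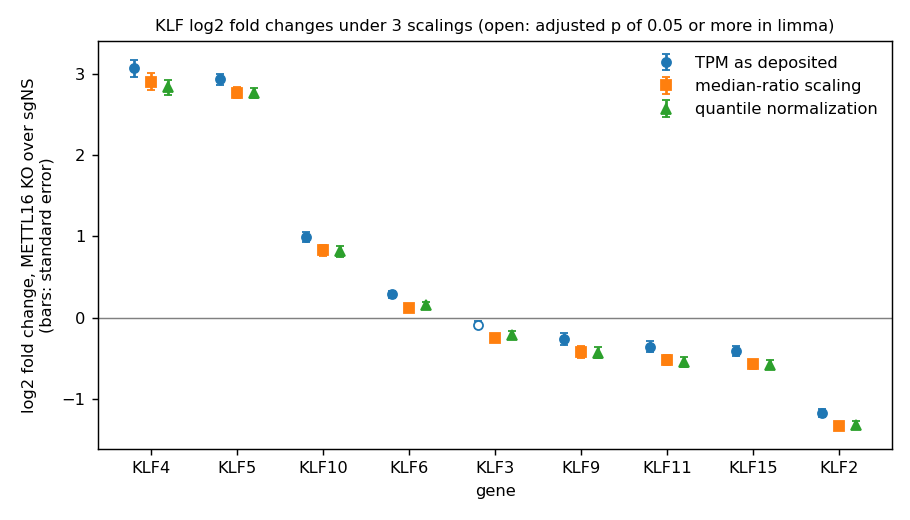
Log2 fold changes of the 9 KLF genes with standard errors for TPM as deposited, after median-ratio scaling and after quantile normalization, with open symbols at an adjusted p of 0.05 or more in limma. KLF4, KLF5 and KLF10 lie above 0 and KLF2, KLF15, KLF11 and KLF9 below 0 under each scaling, and KLF3 is open only for TPM as deposited, at -0.09.

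KLF5, KLF4, KLF2 and KLF10 were the KLFs that changed most. Genes near them had median changes between 0.01 and 0.20, far from those of these KLFs. Near the KLFs with smaller changes, the medians were 0.72 (KLF9), 0.13 (KLF11), -0.04 (KLF3) and -0.16 (KLF15). Near KLF6, at 0.28, there was 1 gene, at 1.08. Of the genes tested within 1 Mb of KLF5 there were 5, with log2 fold changes from -0.29 to 0.51 and a median of 0.10. The lowest of them was KLF12, which lies 609 kb from KLF5 on chromosome 13 with no other tested gene between them. Near KLF4 there was 1 gene, at 0.04. The 30 genes near KLF2 had a median of 0.20 and a range from -0.96 to 1.27, and the 9 near KLF10 had a median of 0.01 and a range from -2.17 to 0.35, so that at least 1 of them changed by more than KLF10.

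Among the remaining KLF genes, 7 were in the table and 3 were tested. KLF7, an activator related to KLF6, had 6.53 and 6.5 TPM under sgNS against 8.25 and 8.35 TPM under METTL16 KO (log2 fold change 0.34, limma adjusted p = 0.0036). KLF12, a CTBP-binding repressor, had 5.26 and 5.08 TPM under sgNS against 4.26 and 4.16 TPM under METTL16 KO (log2 fold change -0.29, limma adjusted p = 0.028). KLF16, a SIN3A-binding factor, had overlapping groups, with 26.5 and 23.6 TPM under sgNS and 26.5 and 25.7 TPM under METTL16 KO. KLF7 lost its call with both scalings, and KLF12 lost it whenever 1 library was left out, with adjusted p-values from 0.056 to 0.10 in limma. KLF1, the erythroid factor, and KLF14 were at 0 to 0.23 TPM in all libraries, and KLF8 and KLF17 were listed at 0.

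Of the 9 SP genes, 6 were tested, and 2 were called higher and 2 lower. Over all genes, 50.1% were called higher and 25.6% lower. SP3, a ubiquitous GC-box factor, rose from 57.8 and 62.0 TPM under sgNS to 77.3 and 73.2 TPM under METTL16 KO (log2 fold change 0.33, limma adjusted p = 1.2e-04). SP2, at 15.1 and 14.1 TPM under sgNS and 20.1 and 18.2 TPM under METTL16 KO, rose by 0.39 at a limma adjusted p of 5.4e-04. SP5, a Wnt target gene, fell from 8.51 and 7.61 TPM to 5.74 and 4.91 TPM (log2 fold change -0.59, limma adjusted p = 4.6e-04). SP1, the founding member, had 51.0 and 53.7 TPM under sgNS against 48.4 and 48.2 TPM under METTL16 KO (log2 fold change -0.12, limma adjusted p = 0.046). SP4, at -0.05 (95% confidence interval -0.19 to 0.10), and SP8, at -0.09 (-0.24 to 0.06), did not pass. SP1 lost its call in 6 of 12 alternatives, while SP4 and SP8 were called lower with both scalings. Over the KLF and SP genes outside the list, 3 were thus called higher and 3 lower, and none by a log2 fold change of 1. Both scalings gave 2 higher and 5 lower of these KLF and SP genes. Over all genes, 4349 were then higher and 4380 lower (median-ratio scaling), and 4420 and 4248 (quantile normalization).

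Genes that act upstream of the KLFs were taken from lists of their regulators. In the MEK5-ERK5-MEF2 cascade, which induces KLF2 and KLF4 under flow in endothelium, 3 of 7 tested genes were called higher and 2 lower. Over all genes, 50.1% were called higher and 25.6% lower. MAP2K5, which encodes MEK5, went from 14.8 and 14.3 TPM under sgNS to 8.68 and 9.25 TPM under METTL16 KO (log2 fold change -0.69, limma adjusted p = 8.3e-06). MEF2A fell by 0.34 on the log2 scale. MAPK7, which encodes ERK5, was at 0.46, MEF2D at 0.36 and MAP3K2 at 0.28, of which MAP3K2 was not called with either scaling.

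In the TGF-beta list, from which KLF10 and KLF11 take their older names, 4 of 9 tested genes were higher and 4 lower. Over all genes, 50.1% were higher and 25.6% lower. TGFB2, a ligand, went from 4.21 and 3.72 TPM under sgNS to 13.9 and 13.6 TPM under METTL16 KO (log2 fold change 1.77, limma adjusted p = 3.2e-08). SMAD7, the inhibitory SMAD that KLF10 and KLF11 are described to repress, went from 13.3 and 12.8 TPM to 44.28 and 43.98 TPM (log2 fold change 1.75, limma adjusted p = 7.6e-10). The receptor gene TGFBR2 fell by 0.52, TGFB1 fell by 0.49 and SMAD2 fell by 0.25, while SMAD4 was at 0.38. The ligands TGFB1 and TGFB2 thus moved in opposite directions.

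Of the glucocorticoid list, 4 of 7 tested genes were higher and 1 lower, where 50.1% of all genes were higher and 25.6% lower. SGK1, a kinase gene induced by glucocorticoids and by cell stress, went from 63.0 and 63.2 TPM under sgNS to 171.6 and 170.0 TPM under METTL16 KO (log2 fold change 1.43, limma adjusted p = 1.8e-10). DUSP1, a MAP kinase phosphatase, was at 1.08, and the receptor gene NR3C1 at 0.73. FKBP5, a standard target of the receptor, fell by 0.61, from 24.6 and 25.5 TPM to 16.3 TPM in both METTL16 KO libraries. The receptor gene and its targets thus moved in both directions, and KLF9 and KLF15, also described as targets, fell.

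In the circadian list, 5 of 9 tested genes were higher, 0 were lower and 4 did not pass. Over all genes, 50.1% were higher and 25.6% lower. PER2, a clock repressor, went from 7.18 and 6.60 TPM under sgNS to 21.3 and 21.0 TPM under METTL16 KO (log2 fold change 1.61, limma adjusted p = 1.2e-08). CRY2 was at 1.01 and NR1D1, which encodes REV-ERB alpha, at 0.83.

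The KLF cofactors were called higher in 6 of 10 genes and lower in 1, where 50.1% of all genes were higher and 25.6% lower. The gene that fell was CTBP2, the corepressor of KLF3, KLF8 and KLF12, from 24.6 and 24.4 TPM under sgNS to 7.79 and 7.34 TPM under METTL16 KO. This is a log2 fold change of -1.68 (standard error 0.069, limma adjusted p = 4.6e-09), ranked 90 from the largest fall. Its paralog CTBP1 had 144 and 133 TPM under sgNS against 138 and 132 TPM under METTL16 KO, with overlapping groups and a log2 fold change of -0.03. Relative to the median gene, CTBP1 was at -0.20 and CTBP2 at -1.85. SAP30, a subunit of the SIN3 complex, rose from 53.2 and 54.1 TPM to 110.4 and 110.8 TPM (log2 fold change 1.04, limma adjusted p = 3.1e-09). SIN3A had a log2 fold change of -0.04, at a limma adjusted p of 0.44. That test is against 0, and relative to the median gene SIN3A was at -0.20 and SAP30 at 0.88. The acetyltransferase genes CREBBP and KAT2B were at 0.69 and 0.44. Of the 7 genes for turnover of KLF proteins, 4 were higher and 0 lower, where 50.1% of all genes were higher and 25.6% lower. The median log2 fold change of these 7 genes was 0.18, against 0.16 over all genes. FBXW7, the ubiquitin ligase gene described for KLF2 and KLF5, was at 0.63, at a limma adjusted p of 1.0e-06, SMURF2 at 0.36 and BAP1 at 0.35. SMURF2 lost its call in 6 of 12 alternatives, which were both scalings, the test of all genes above 0, and leaving out the first sgNS or either METTL16 KO library, with adjusted p-values from 0.054 to 0.24 in limma. KLF protein was not measured in these libraries.

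Of the genes of growth control described as KLF targets, 2 of 6 tested were higher and 3 lower. Over all genes, 50.1% were higher and 25.6% lower. CDKN1A, the cell cycle inhibitor described as a target of KLF4 and KLF6, went from 16.6 and 17.2 TPM under sgNS to 46.3 and 47.6 TPM under METTL16 KO (log2 fold change 1.47, limma adjusted p = 2.0e-09). CCND1, described as repressed by KLF4 and activated by KLF5, fell by 0.25, from 188 and 185 TPM to 156 and 157 TPM. IGF1R fell by 0.79 and CDH1 fell by 0.25, and CCNE1 was at 0.22. CCNE1 lost its call in 5 of 12 alternatives, which were both scalings, the test of all genes above 0, and leaving out the first sgNS or the second METTL16 KO library, with adjusted p-values from 0.051 to 0.66 in limma. CDH1 lost its call without the second METTL16 KO library, at a limma adjusted p of 0.053.
Of the metabolic genes described as targets of KLF15, 3 of 6 were tested. BCAT2, an enzyme of branched-chain amino acid breakdown, fell from 23.5 and 25.0 TPM under sgNS to 14.4 and 9.59 TPM under METTL16 KO (log2 fold change -1.04, limma adjusted p = 5.5e-05). Over 12 alternatives the value of BCAT2 ranged from -1.33 to -0.74. TAT, tyrosine aminotransferase, was at 0.75. PCK1, a gluconeogenic enzyme, was listed at 0.02 and 0.03 TPM under sgNS against 2.05 and 2.20 TPM under METTL16 KO, and it passed the filter on low values only through the latter. GPT and PRODH, which did not pass the filter, were lower in both METTL16 KO libraries, at 0.26 and 0.29 TPM against 1.14 and 1.13 TPM for GPT and at 0.53 and 0.33 TPM against 1.56 and 0.99 TPM for PRODH. Of the genes described as endothelial targets of KLF2 and KLF4, S1PR1 was at 0.40 and was not called with either scaling, while THBD was at 0 to 0.19 TPM and NOS3 at 0.43 to 1.31 TPM. Over all these regulators and targets, 30 of 59 tested genes were higher and 13 lower, against 50.1% and 25.6% of all genes. Their median log2 fold change was 0.15 against 0.16 over all genes. With median-ratio scaling 21 were higher and 20 lower, where over all genes 4349 were higher and 4380 lower. Quantile normalization gave 22 and 19, where over all genes 4420 were higher and 4248 lower. Of the called regulators and targets, 51.2% and 53.7% were higher with these scalings, against 49.8% and 51% of all genes called.

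**Figure D5:**
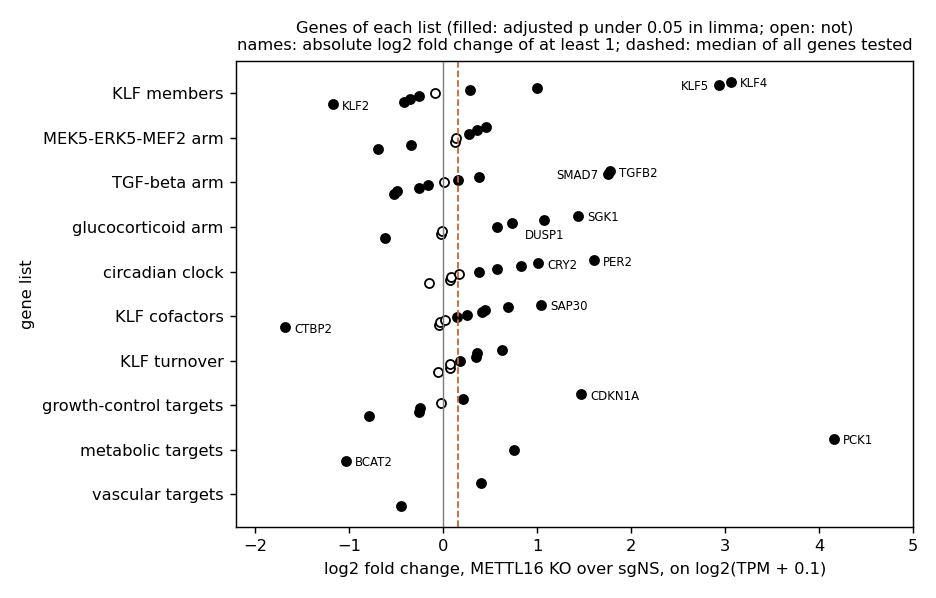
Log2 fold changes of METTL16 KO over sgNS on log2(TPM + 0.1) for the tested genes of each list, with points filled where the limma adjusted p was under 0.05 and a dashed line at the median of all genes, 0.16. KLF4 and KLF5 lie near 3, and outside the KLFs the genes past an absolute value of 1 are PCK1, TGFB2, SMAD7, PER2, CDKN1A, SGK1, DUSP1, SAP30 and CRY2 on the right and CTBP2 and BCAT2 on the left.

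The genes whose levels over the 4 libraries were most like those of KLF4 and KLF2 were found by the Euclidean distance between centred log2(TPM + 0.1) values. For KLF4 they included COL14A1 (distance 0.13) and SLC12A2 (0.14). COL14A1 had 0.7 and 0.6 TPM under sgNS against 6.1 and 5.77 TPM under METTL16 KO, and it passed the filter on low values only through the latter. For KLF2 they were MRPL21 (0.03), RSAD1 (0.04) and SQLE (0.04). With 4 libraries in 2 groups, such a distance mainly picks genes with a like fold change.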

How the data were processed

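RNA-seq libraries from 2 sgNS and 2 METTL16 KO samples of Huh7 cells were compared. Per the labels and the methods of the study, the authors used Cutadapt for trimming, STAR for alignment (GRCh38) and RSEM for quantification. Versions and annotation are not given in the sources used here. The labels name both rRNA depletion and an mRNA kit. The study calls the unit RPKM, but the deposited columns each sum to 1000000, so the deposited values were treated as TPM. Columns were matched to samples by their names. 

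Genes with a mean of at least 1 TPM were tested on log2(TPM + 0.1) by limma 3.58.1 (lmFit, eBayes with trend) in R 4.3.3, two-sided, with Benjamini-Hochberg adjustment over the 11971 genes tested. The model was tested on simulated data with far fewer changed genes than were called here, so that test gives no error rate for these data. Positions were read from GENCODE release 44 (GRCh38), with 11894 tested symbols matched, and promoter windows are those of RefSeq on GRCh38.p14, checked against the genome sequence for the 3 windows printed. Figures were drawn with matplotlib 3.10.9.

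The KLF genes and all gene lists were chosen with earlier results of these data known. Named are all KLF genes found, METTL16, the other KLF and SP genes tested, up to 3 genes per list and direction with the largest change among those called, and the 3 genes nearest in profile to the KLFs that rose and fell most. CTBP1, SIN3A, ALB, GPT, PRODH, THBD, NOS3, single marker genes and untested genes were named after their values were seen. Some genes that this rule selects are not reported here. Alternatives were pseudocounts of 1 and 0.01, all genes above 0, a minimum mean of 5 TPM, median-ratio scaling, quantile normalization, a replicate block, limma without trend, an added fold threshold and leaving out each library in turn.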

Additional observations from a re-analysis of the deposited data

How the results depend on the processing

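KLF2, KLF4, KLF5, KLF6, KLF10, KLF11 and KLF15 kept their direction and stayed past an adjusted p of 0.05 in limma under 12 of 12 alternatives each, and so did METTL16. KLF4 ranged from 2.62 to 3.16, KLF5 from 2.76 to 2.98, KLF10 from 0.81 to 1.07 and KLF2 from -1.34 to -1.14. KLF9 lost its call without the second METTL16 KO library, with values from -0.30 to -0.22 when each library was left out in turn. KLF3 was called lower at -0.25 (median-ratio scaling) and at -0.21 (quantile normalization). With an added log2 fold threshold of 1, 2 KLF genes were higher and 1 lower. Of the other KLF and SP genes, 5 were lower with each of these scalings, 5 were higher when all genes above 0 were tested, and 1 to 2 were lower when each library was left out. The regulators and targets called lower were 20 with median-ratio scaling. Over all genes, 4380 were called lower with that scaling and 4248 with quantile normalization, in place of 3065. KLF16 turned to -0.10 (median-ratio scaling) and -0.12 (quantile normalization), and leaving out each library gave -0.021 to 0.15. Median-ratio scaling divides each library by a single factor, so it shifts nearly all genes alike. The median over all genes went from 0.16 to -0.0024 with it, and to 0.0097 with quantile normalization. Why the values moved in the other alternatives was not tested. The libraries share replicate numbers, but the deviations of same-numbered libraries had a correlation of -0.044 across genes. With the replicate block, 4 KLF genes were higher and 4 lower, the values of KLF4 and KLF2 were 3.06 and -1.17, and over all genes 6048 were higher and 3112 lower. SP1 lost its call there, with an adjusted p of 0.058 in limma. Leaving out a library leaves 1 library in its group, which is then assumed to vary like the other group. TPM gives no depth, so low values such as those of KLF1, KLF14 and PCK1 carry an unknown counting error.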
